A study of Mus musculus with 24 samples.

Results

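Cultured mouse cortical neurons that carried a non-targeting guide RNA were compared after brief depolarization with KCl and at rest, at 18 days in vitro (DIV18). The members are the 4 libraries whose sample titles name the non-targeting guide RNA at DIV18, 2 of them labelled as depolarized and 2 as unstimulated, out of 24 libraries in the series. The series asked how synaptic activity acts on BAF-type chromatin remodelling complexes in neurons, and its other DIV18 cultures lack the BAF subunit gene Smarcc2 or carry it back as wild-type or substituted protein. The neurons came from cortex at embryonic day 16.5. All cultures, resting ones included, were silenced overnight with 1 µM tetrodotoxin, which blocks voltage-gated sodium channels, and 100 µM D-AP5, an NMDA receptor antagonist. KCl at 50 mM was then given for 30 min to the cultures to be depolarized, and resting cultures had medium removed and returned without it. Total RNA was sequenced after removal of ribosomal RNA. The non-targeting cultures are the control for the CRISPR knockout; how Cas9 reached the cells, the mouse strain and the number of culture preparations are not given in the sources used here. The comparisons drawn on below are wild-type neurons at DIV7 with 0.1% DMSO (2 resting and 2 depolarized libraries, poly(A)-selected RNA, same silencing and KCl) and Smarcc2 knockout neurons with empty vector at DIV18 (3 and 3 libraries).

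Raised extracellular potassium depolarizes the membrane and opens L-type calcium channels, and calcium entry drives kinase cascades to transcription factors that are already present, chiefly CREB, SRF with its partners and MEF2. Within minutes these switch on immediate-early genes without new protein synthesis: transcription factors of the Fos/Jun (AP-1), Egr, Nr4a and Npas4 families, and effectors at synapses such as Arc. A later set of genes, including Bdnf, follows under the control of those factors.

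The 4 libraries held between 19890849 and 23835270 estimated counts. Levels are given as CPM, read counts scaled to a common library total with TMM factors, and changes as log2 fold change of KCl over rest. Smarcc2, the gene targeted elsewhere in the series, stood at 265 and 237 CPM at rest and 274 and 283 CPM under KCl, against 47.1 to 64.1 CPM in the 6 libraries of knockout with vector. Clca1, which the submitters used as a sign of excitotoxicity, had between 3 and 12 estimated counts in each non-targeting library. Neuronal markers were strongly present: Snap25, a protein of synaptic vesicle fusion, stood between 765 and 849 CPM, and Slc17a7, the vesicular glutamate transporter of excitatory cortical neurons, between 1620 and 1714 CPM. The protocol took each embryo's cortex as a biological replicate, but every one of the 4 libraries held both Xist (486 to 899 CPM), made in female cells, and Y-linked Ddx3y (18.4 to 27.3 CPM).

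Few genes passed the test, and immediate-early genes gave the clearest response. Of 20940 genes tested, 2 (0.00955%) passed an adjusted p of 0.05 in the quasi-likelihood test of edgeR: Fosb, a partner of Jun proteins in AP-1, and Mbd6, a gene of the methyl-CpG-binding domain family. Both were higher under KCl and no gene was called lower. At an unadjusted p under 0.05 there were 906 genes (4.33%), 504 higher (2.41%) and 402 lower (1.92%), and the median log2 fold change over all genes was -0.0049. Both depolarized libraries lay above both resting ones for 3493 genes (16.7%) and below both for 3510 (16.8%). Of 57 genes in 7 lists of early-response genes, all of which entered the test, 1 was called and 16 stood higher at an unadjusted p under 0.05, with none lower. In 28 of the 57 the depolarized libraries were both above the resting ones, in 1 both below, and the median log2 fold change was 0.22, with 0.16 without resting replicate 1 and 0.37 without resting replicate 2. With 2 libraries against 2, an exact permutation test of a single gene cannot give a p below 0.333, so the calls rest on a spread estimated over all 20 DIV18 libraries.

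**Figure D1:**
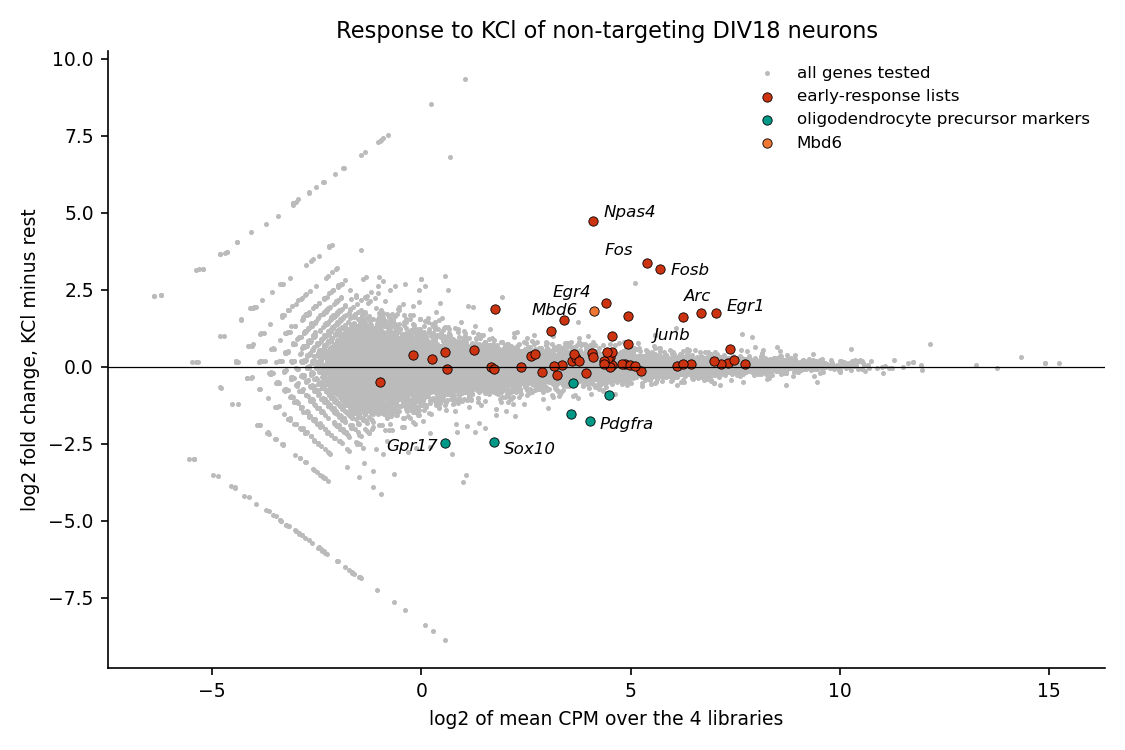
Log2 fold change of KCl over rest (vertical axis) against the log2 of the mean CPM over the 4 non-targeting libraries (horizontal axis). Each point is a gene; red points are the early-response lists, the orange point is Mbd6 and green points are markers of oligodendrocyte precursors. Npas4 lies highest among the labelled genes, at 4.73, and the genes with the most extreme values at the far left are near the detection limit.

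Among AP-1 genes, Fosb was read at 11.1 and 9.64 CPM at rest and at 135 and 51.9 CPM under KCl, a mean of 10.4 ± 1.03 against 93.5 ± 58.9 CPM (SD, n = 2 each). The groups did not overlap, and the lower depolarized library was still several times above either resting one. Fosb rose by 3.17 on the log2 scale (SE 0.398, adjusted p = 0.00463). Its call was lost without resting replicate 1 (adjusted p = 0.0815) and without resting replicate 2 (adjusted p = 0.217), and in a fit of the non-targeting groups alone (adjusted p = 0.227), while the fold change stayed between 2.32 and 3.70 without any 1 library. Fos, the founding member of the family, had 7.52 and 7.25 CPM at rest and 113 and 38.5 CPM under KCl. These groups were also far apart, with a log2 fold change of 3.36 (SE 0.614), but the adjusted p was 0.0912. Junb, a Jun protein induced by activity, had 40.3 and 35.0 CPM at rest and 150 and 81.6 CPM under KCl (log2 fold change 1.62, adjusted p = 0.206). In the annotation Junb shares sequence with Prdx2 on the opposite strand. The strand setting of the counting is not given in the sources used here, so reads from the shared sequence cannot be told apart.

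The remaining AP-1 genes gave smaller values. Jun, the main partner of Fos, was already abundant at rest, with 124 and 146 CPM, and had 218 and 181 CPM under KCl (log2 fold change 0.56, adjusted p = 1). Fosl2 had 18.9 and 21.3 CPM at rest and 27.5 and 22.8 CPM under KCl (0.32). Neither pair of groups overlapped, and neither gene passed the test. Jund, a Jun protein present without stimulation, had 142 and 167 CPM at rest and 186 and 152 CPM under KCl, with overlapping groups. Fosl1 was near the detection limit, with 0.107 to 1.06 CPM. Over the 7 AP-1 genes the median log2 fold change was 0.56. Of them, 4 were higher at an unadjusted p under 0.05 (2.41% of all genes tested). In 5 the depolarized libraries were above both resting ones (16.7% of all genes tested).

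**Figure D2:**
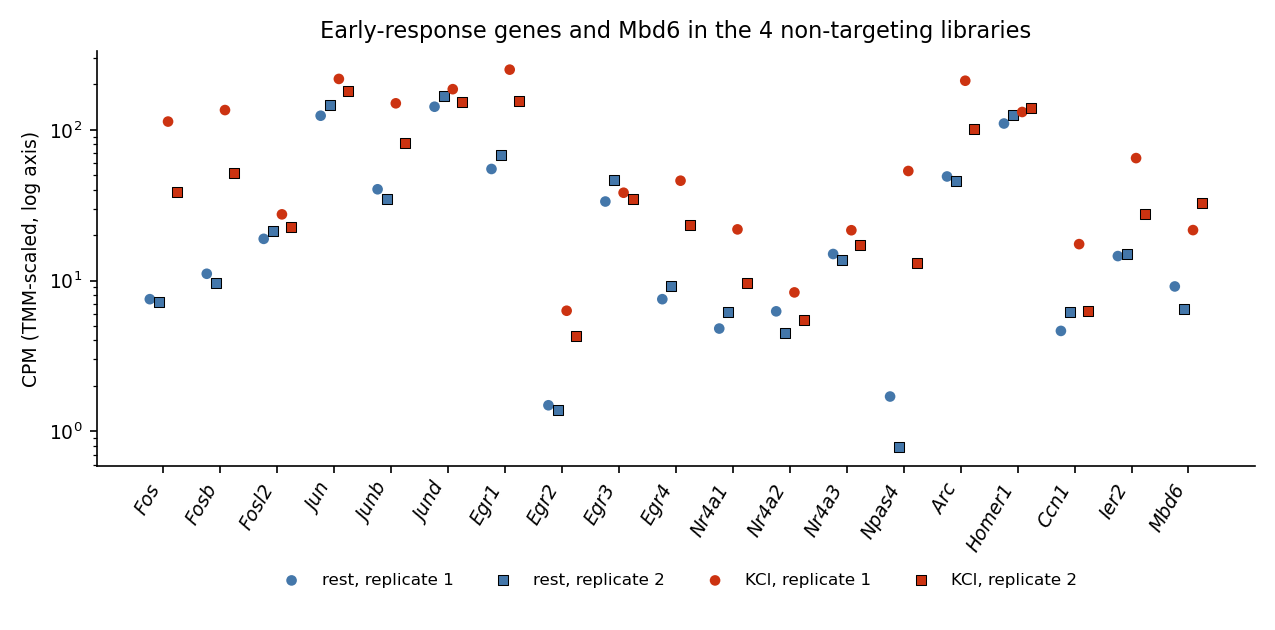
Level of 18 early-response genes and Mbd6 in each of the 4 non-targeting libraries, in CPM on a log axis. Blue symbols are resting and red symbols depolarized libraries, circles replicate 1 and squares replicate 2. Fos and Fosb under KCl, 38.5 to 135 CPM, stand clear of their resting values. Jund and Egr3 overlap theirs, and Homer1 lies only slightly above its own.

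The stretch before the transcription start of several of these genes is shown because activity-responsive factors bind there. The sequences are RefSeq promoter windows on build GRCm38.p6, written 5′ to 3′ on the gene's own strand up to the base before the start. Capitals mark letters that match a searched motif: the short core site of the cAMP response element (short CRE, TGACG on either strand), to which CREB can bind, or the CArG box, the binding motif of SRF.
Fos, chr12:85473640-85473889, plus strand: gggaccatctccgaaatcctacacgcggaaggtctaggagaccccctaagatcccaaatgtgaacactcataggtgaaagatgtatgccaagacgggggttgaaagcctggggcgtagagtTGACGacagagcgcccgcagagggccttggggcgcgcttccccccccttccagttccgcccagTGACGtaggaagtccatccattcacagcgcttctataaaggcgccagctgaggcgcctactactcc
Fosb, chr7:19310046-19310295, minus strand: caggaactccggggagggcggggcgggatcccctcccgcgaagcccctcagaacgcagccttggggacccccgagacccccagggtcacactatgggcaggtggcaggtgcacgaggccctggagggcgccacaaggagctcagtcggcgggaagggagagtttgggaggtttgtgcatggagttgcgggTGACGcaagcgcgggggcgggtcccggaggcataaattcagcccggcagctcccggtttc
Egr4, chr6:85513590-85513839, minus strand: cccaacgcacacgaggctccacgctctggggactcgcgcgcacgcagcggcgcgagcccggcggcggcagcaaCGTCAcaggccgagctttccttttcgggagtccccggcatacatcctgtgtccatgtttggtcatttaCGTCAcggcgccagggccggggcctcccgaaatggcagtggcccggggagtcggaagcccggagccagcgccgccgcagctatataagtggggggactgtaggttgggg
Egr2, chr10:67537316-67537565, plus strand: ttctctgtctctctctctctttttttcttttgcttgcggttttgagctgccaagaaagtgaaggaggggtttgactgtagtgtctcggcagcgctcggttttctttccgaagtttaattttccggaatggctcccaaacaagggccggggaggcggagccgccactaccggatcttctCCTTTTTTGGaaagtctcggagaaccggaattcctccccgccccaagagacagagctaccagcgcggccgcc
Mbd6, chr10:127289019-127289268, minus strand: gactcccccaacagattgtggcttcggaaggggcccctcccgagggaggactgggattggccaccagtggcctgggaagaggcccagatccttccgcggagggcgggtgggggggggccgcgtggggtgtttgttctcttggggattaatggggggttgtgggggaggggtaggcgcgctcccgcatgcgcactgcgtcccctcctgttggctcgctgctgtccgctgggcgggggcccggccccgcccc
In Fos the match nearest the start begins 66 bases before it, and in Fosb the only match begins 60 bases before it. In Egr4 both matches read CGTCA, the short CRE on the other strand. Egr2 has 5 windows in the table, and the first one with a CArG box is shown. Of 27 genes in the AP-1, Egr, Nr4a, Npas4 and synaptic lists, 23 had a window; Arc, Egr1, Egr3 and Fosl1 had none. Over windows of 300 bases (250 before and 50 from the start), the short CRE was found in 17 of the 23 genes and in 20.8% of all 32851 windows. The full CRE, TGACGTCA, which contains the short one, was found in 3 of the 23 genes and 1.79% of all windows. The AP-1 motif (TGAGTCA or TGACTCA) was in none of the 23 genes and in 5.2% of windows, the Egr motif (GCGTGGGCG) in 1 gene and 0.612%, and the CArG box in 1 gene and 1.63%. Genes with several windows had more than one chance of a match, and matching letters are a description, not a measured binding site.

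Egr genes encode zinc-finger transcription factors, and Nab1 and Nab2 encode co-repressors that bind them. Egr1 had 55.0 and 67.6 CPM at rest and 251 and 155 CPM under KCl, a mean of 61.3 ± 8.93 against 203 ± 67.4 CPM (SD, n = 2 each). Egr4 had 7.52 and 9.18 CPM at rest and 46.0 and 23.2 CPM under KCl, and Egr2 had 1.49 and 1.38 CPM at rest and 6.30 and 4.27 CPM under KCl. All 3 were higher in both depolarized libraries than in either resting one, with log2 fold changes of 1.73 (SE 0.322), 2.05 (SE 0.380) and 1.88 (SE 0.516). None passed the test: the adjusted p was 0.0912 for Egr1, 0.0912 for Egr4 and 0.724 for Egr2. Egr3 was unlike these, with 33.4 and 46.2 CPM at rest and 38.2 and 34.6 CPM under KCl (log2 fold change -0.13, 95% confidence interval -0.47 to 0.21). Nab1 (9.22 and 10.9 against 8.43 and 12.3 CPM) and Nab2 (22.2 and 24.3 against 25.6 and 22.1 CPM) had overlapping groups. The 6 genes had a median log2 fold change of 0.89, with 3 higher at an unadjusted p under 0.05 (2.41% of all genes tested).

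The 3 Nr4a genes encode orphan nuclear receptors. Nr4a1 had 4.80 and 6.19 CPM at rest and 21.8 and 9.61 CPM under KCl (log2 fold change 1.52, SE 0.454, adjusted p = 0.870). Nr4a3 had 15.0 and 13.7 CPM at rest and 21.6 and 17.2 CPM under KCl (0.43, SE 0.147), and Nr4a2 had 6.24 and 4.50 against 8.34 and 5.44 CPM (0.36, SE 0.319). Depolarized libraries lay above both resting ones for Nr4a1 and Nr4a3 but not for Nr4a2, and no Nr4a gene passed the test. The log2 fold changes were larger with offsets from effective lengths, at 2.83 for Nr4a1, 1.17 for Nr4a2 and 1.04 for Nr4a3, and the median of the 3 went from 0.43 to 1.17, again with none called.

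Npas4, a transcription factor induced by calcium entry in neurons, had the largest log2 fold change of any early-response gene. It was read at 1.70 and 0.780 CPM at rest and at 53.3 and 13.1 CPM under KCl. The groups were far apart but the depolarized libraries also differed widely between themselves, and the log2 fold change of 4.73 (SE 0.786, 95% confidence interval 3.08 to 6.37) had an adjusted p of 0.0519. Its dimer partners gave small values. Arnt had 22.5 and 23.4 CPM at rest and 23.6 and 21.9 CPM under KCl. Arnt2, the partner prevalent in neurons, had 166 and 164 CPM at rest and 171 and 214 CPM under KCl (log2 fold change 0.22, adjusted p = 1).

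Among genes that act at synapses, Arc, which promotes removal of AMPA receptors from the membrane, had 49.0 and 45.5 CPM at rest and 212 and 102 CPM under KCl (log2 fold change 1.73, SE 0.412, adjusted p = 0.540). Ccn1, a secreted matrix protein, had 4.63 and 6.15 CPM at rest and 17.4 and 6.30 CPM under KCl. Its second depolarized library lay at the level of the resting ones. Homer1, a scaffold of the postsynaptic density, had 110 and 126 CPM at rest and 131 and 139 CPM under KCl (0.19, SE 0.091). The kinase gene Plk2 had 206 and 203 against 215 and 223 CPM, Plk3 had 8.75 and 9.04 against 7.82 and 10.5 CPM, and Arl4d had 12.6 and 13.0 against 15.8 and 13.2 CPM. Ptgs2, which encodes the inducible cyclooxygenase, had 0.934 and 1.51 against 0.900 and 2.56 CPM, and Amigo3 had 4.33 and 2.52 against 3.41 and 3.15 CPM. In this list 5 of 8 genes had depolarized libraries above both resting ones, against 16.7% of all genes tested. For Ccn1 (6.30 against 6.15 CPM) and Arl4d (13.2 against 13.0 CPM) the lower depolarized library barely exceeded the higher resting one. At an unadjusted p under 0.05, 2 were higher, Arc and Homer1, against 2.41% of all genes tested. The median log2 fold change of the 8 genes was 0.19.

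Other early regulators gave the same uneven picture. Of 18 genes, 16 had a positive log2 fold change, 7 had both depolarized libraries above the resting ones, and 2 were higher at an unadjusted p under 0.05. Over all genes tested these shares were 49.0%, 16.7% and 2.41%. Those were Ier2 (14.5 and 14.9 CPM at rest, 64.9 and 27.5 CPM under KCl) and Gadd45g, a stress-responsive gene, with 27.4 and 18.8 CPM at rest and 37.1 and 39.2 CPM under KCl. Neither passed after adjustment (adjusted p = 0.688 for both). Of 12 feedback genes, most of which damp MAP kinase signalling, Dusp1 (14.6 and 16.9 CPM at rest, 40.2 and 21.8 CPM under KCl) and Dusp5 (20.6 and 15.5 against 24.3 and 26.5 CPM) were higher at an unadjusted p under 0.05. The list's median was 0.080. Of 10 late-response genes none reached that level, the median was 0.28, and Bdnf, the neurotrophin gene, had 9.98 and 7.57 CPM at rest and 9.90 and 15.2 CPM under KCl. Among 29 genes of the route from calcium entry to transcription (calcium channels, calmodulin, CaM kinases, calcineurin, MAP kinases, CREB and its co-activators, Elk and Mef2 genes), the median was -0.0057. In that list the co-activator gene Crtc2 was higher (8.07 and 10.6 against 11.2 and 12.6 CPM) and the kinase gene Camk2d lower (113 and 142 against 108 and 107 CPM) at an unadjusted p under 0.05, and neither passed after adjustment.

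The depolarized libraries differed in the size of the response for some early-gene families. Relative to the resting mean, with 0.5 CPM added to both, replicate 1 was higher by 3.85 on the log2 scale for Fos and replicate 2 by 2.31. For Npas4 the values were 4.95 and 2.96, for Egr1 2.02 and 1.34, and for Arc 2.15 and 1.10. Replicate 1 lay above replicate 2 in all 7 AP-1 genes, all 3 Nr4a genes and 5 of 6 Egr and Nab genes, but in 7 of 18 other early regulators, 6 of 12 feedback genes and 4 of 8 synaptic genes. Over all 57 early-response genes it did so in 34, against 49.1% of all genes tested, and the median log2 values over the resting mean were 0.24 in replicate 1 and 0.21 in replicate 2. Mbd6 had the opposite order, 1.42 in replicate 1 and 2.01 in replicate 2. The labels do not name a technical difference between these libraries, and its part in the spread was not tested.

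**Figure D3:**
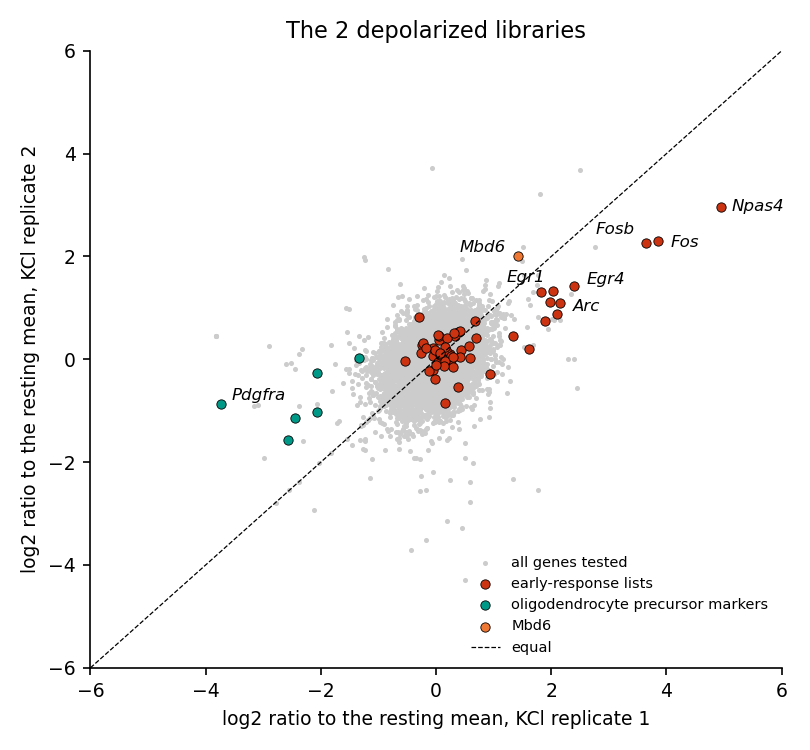
Log2 ratio of each depolarized library to the mean of the resting libraries, replicate 1 on the horizontal and replicate 2 on the vertical axis, 0.5 CPM added; each point is a gene and the dashed line marks equal values. Both axes share the resting mean. Npas4, Fos, Fosb, Egr1, Egr4 and Arc lie below the line and Mbd6 above it.

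Mbd6, on chromosome 10 at 127281956-127289018 (minus strand, GRCm38), encodes a protein with a methyl-CpG-binding domain and is not among the classical immediate-early genes. It was read at 9.13 and 6.42 CPM at rest and at 21.6 and 32.9 CPM under KCl, a mean of 7.78 ± 1.92 against 27.3 ± 8.00 CPM (SD, n = 2 each). The groups did not overlap, and Mbd6 rose by 1.80 on the log2 scale (SE 0.263, adjusted p = 0.0187). Its call was lost without resting replicate 1 (adjusted p = 0.0815), resting replicate 2 (0.827) or depolarized replicate 2 (0.221), with fold changes from 1.47 to 2.08 without any 1 library, with offsets from effective lengths (0.469) and in a fit of the non-targeting groups alone (0.227). The predicted gene Gm20492 overlaps it on the opposite strand, so reads from the stretch they share cannot be told apart. How much of Mbd6 that stretch covers was not measured. Of the other 6 genes of the family, Mbd5 was higher at an unadjusted p under 0.05 (76.3 and 71.2 against 82.0 and 86.8 CPM, log2 fold change 0.19), and none passed; the family's median was 0.11. Among 28 subunit genes of BAF-type complexes none was called, the log2 fold changes ran from -0.33 to 0.15, and their median was 0.00053. Brd9 (31.6 and 38.0 against 30.4 and 24.7 CPM) and Smarcc1 (88.5 and 102 against 81.8 and 80.9 CPM) were lower at an unadjusted p under 0.05.

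At the level of transcript forms, 1 of 59803 transcripts tested (0.00167%) was called, Fosb-204. Its annotated model is a single exon of 3629 bases that keeps introns, with no coding sequence. The authors' TPM values for it were 0.858 and 0.411 at rest and 18.9 and 6.68 under KCl, and it rose by 4.33 on the log2 scale (SE 0.531, adjusted p = 0.0475). The spliced form Fosb-201, which encodes 338 residues, had 1.65 and 1.91 TPM at rest and 14.2 and 4.92 TPM under KCl (log2 fold change 2.43, adjusted p = 0.654). Fosb-206, which encodes 237 residues, had 0.799 and 0 TPM at rest and 3.43 and 0.577 TPM under KCl. The call of Fosb-204 was lost without resting replicate 2, with the replicate number as a block and in a fit of the non-targeting groups alone.

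Homer1 makes long scaffold proteins and short forms that compete with them. The long form Homer1-203 (366 residues) had 13.8 and 14.9 TPM at rest and 13.1 and 15.1 TPM under KCl, and Homer1-202 (370 residues) 7.13 and 7.37 against 9.01 and 8.37 TPM. Of the short forms, Homer1-207 (193 residues) had 6.19 and 6.29 TPM at rest and 11.2 and 7.53 TPM under KCl (log2 fold change 0.61, adjusted p = 1), and Homer1-204 (186 residues) had 2.16 and 3.51 against 2.69 and 2.62 TPM. The 2 Mbd6 forms with full coding sequences were both higher in the depolarized libraries: Mbd6-201 (1005 residues) had 0.683 and 0.657 TPM at rest and 1.42 and 2.67 TPM under KCl, and Mbd6-202 (1003 residues) had 0.748 and 0.535 against 2.27 and 2.75 TPM. Neither they nor any of the 7 Crem forms or Bdnf-205 passed the test. The files do not hold the uncertainty with which reads were divided between forms.

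Markers of oligodendrocyte precursor cells were among the named genes with the lowest fold changes. Leaving out predicted genes and pseudogenes, among genes at an unadjusted p under 0.05, with a mean of at least 1 CPM and no overlap, the 8 highest were Npas4, Fos, Fosb, Egr4, Egr2, Mbd6, Ttc21a and Arc, and the 8 lowest were Hist1h2ah, Gpr17, Sox10, Sapcd2, Hist2h3c2, Pram1, Pdgfra and Cspg4. Ttc21a, which overlaps Cx3cr1 in the annotation, had 0.467 and 0.688 CPM at rest and 2.08 and 1.87 CPM under KCl (log2 fold change 1.77, adjusted p = 0.201). Gpr17, Sox10, Pdgfra and Cspg4 mark oligodendrocyte precursor cells. Pdgfra, the growth factor receptor of those cells, had 19.7 and 30.3 CPM at rest and 1.42 and 13.5 CPM under KCl (log2 fold change -1.75, SE 0.712, adjusted p = 1). Cspg4 had 13.9 and 21.3 CPM at rest and 3.84 and 8.38 CPM under KCl, and Sox10 had 2.76 and 8.40 against 0.521 and 1.55 CPM. In each of these the depolarized libraries lay below both resting ones, replicate 1 lowest, and none passed the test. Gpr17 had 36 and 75 estimated counts at rest and 1 and 16 under KCl, so its fitted fold change depends on the smallest count. The histone genes Hist1h2ah (3.02 and 2.84 against 0.190 and 0.640 CPM) and Hist2h3c2 (3.02 and 5.09 against 0.379 and 1.92 CPM) were likewise lower without a call.

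Markers of other cells differed between these libraries. All 6 oligodendrocyte precursor markers had negative log2 fold changes, with a median of -1.64, and none was at 0 in all libraries. Of them, 4 were lower at an unadjusted p under 0.05, against 1.92% of all genes tested. Their summed level was 73.8 and 116 CPM at rest and 63.4 CPM in depolarized replicate 2, but 18.0 CPM in depolarized replicate 1, against 7.01 to 24.6 CPM in the 16 other DIV18 libraries. The median of the list was -0.98 without depolarized replicate 1. The 7 markers of cycling cells also all had negative values, none at an unadjusted p under 0.05, with sums of 19.8 and 37.7 CPM at rest and 6.25 and 25.9 CPM under KCl (3.36 to 7.91 CPM elsewhere at DIV18). Astrocyte markers summed to 1636 and 1409 CPM at rest and 1300 and 1796 CPM under KCl (754 to 1299 CPM elsewhere at DIV18). Of 9 markers of inhibitory neurons 8 had a positive log2 fold change (median 0.46), and Dlx1 was higher at an unadjusted p under 0.05. Markers shared by all neurons summed to 3578 and 3525 CPM at rest and 3518 and 3877 CPM under KCl. In RNA from whole cultures fewer cells of a type and less RNA per cell cannot be told apart, and the part of cell makeup in the early-gene response was not tested.

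**Figure D4:**
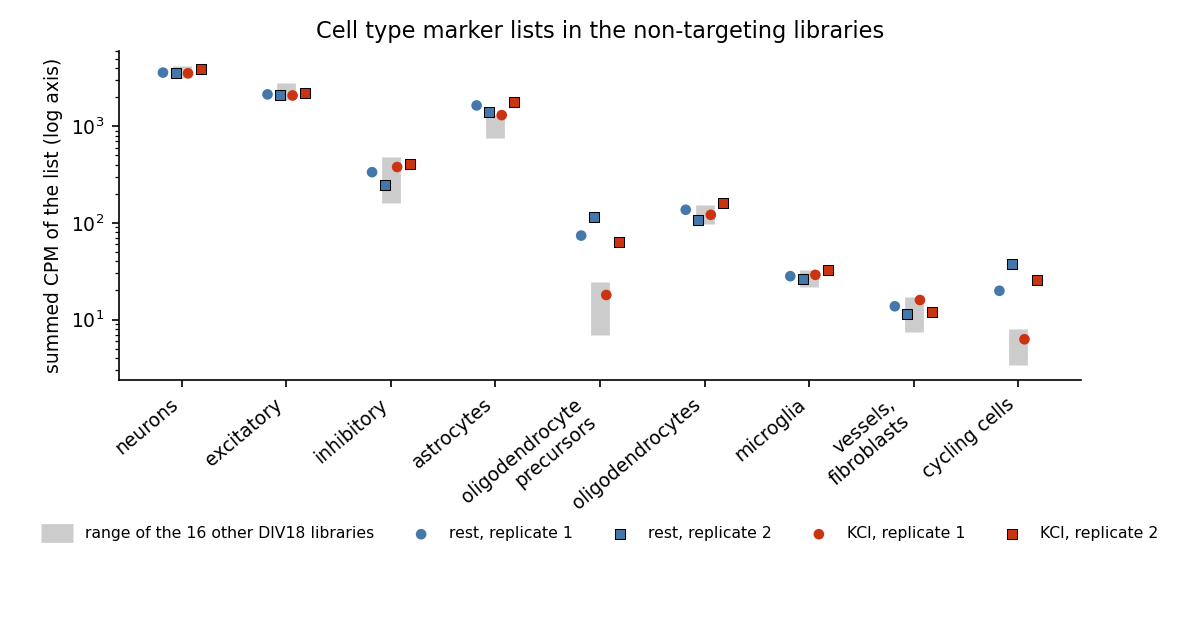
Summed CPM of 9 cell type marker lists on a log axis; blue symbols are resting and red symbols depolarized non-targeting libraries, circles replicate 1 and squares replicate 2, and grey bars give the range of the 16 other DIV18 libraries. Oligodendrocyte precursor and cycling-cell markers stand above the grey range in 3 of the 4 libraries and within it in depolarized replicate 1.

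The same stimulus in Smarcc2 knockout neurons with empty vector called 15 of 20940 genes (0.0716%), 13 of them higher. All 15 had a positive log2 fold change in non-targeting neurons, so 13 had the same sign, and 12 stood at an unadjusted p under 0.05. Over all genes tested, 49.0% were positive and 4.33% stood at an unadjusted p under 0.05. The comparisons share no library, but they share the fit and the spread estimated for each gene. The p-values of the 2 comparisons are therefore not independent. Fosb had 5.06, 5.80 and 7.83 CPM at rest and 122, 117 and 80.6 CPM under KCl in the knockout, a log2 fold change of 4.11 against 3.17 in non-targeting neurons. The log2 fold changes, knockout first, were 5.60 and 4.73 for Npas4, 3.80 and 3.36 for Fos, 2.63 and 2.05 for Egr4, 2.34 and 1.73 for Egr1, 1.90 and 1.73 for Arc, and 1.74 and 1.62 for Junb. Mbd6, called in both, had 10.7, 11.9 and 8.79 CPM at rest and 29.0, 23.4 and 20.3 CPM under KCl in the knockout, a change of 1.21 against 1.80.

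When the difference between the responses was tested, no gene was called (0.0%), with 1845 at an unadjusted p under 0.05 (8.81%) and 9 called by DESeq2. The intervals stayed wide: non-targeting minus knockout was -0.93 for Fosb (95% confidence interval -2.01 to 0.14), -0.87 for Npas4 (-3.35 to 1.60), -0.61 for Egr1 (-1.47 to 0.25) and 0.59 for Mbd6 (-0.11 to 1.30). The Npas4 interval therefore spans large differences in either direction. The 2 genes called lower in the knockout had positive values in non-targeting cultures. Pcp4, a calmodulin-binding peptide gene, had 70.2 and 56.5 CPM at rest and 75.0 and 104 CPM under KCl here, and 130, 96.7 and 113 against 57.5, 56.7 and 56.4 CPM in the knockout. Its difference of 1.50 (0.95 to 2.04) had an adjusted p of 0.242. Zc3h11a had 22.9 and 23.0 against 23.1 and 25.8 CPM here and fell by 1.28 on the log2 scale in the knockout (difference 1.37, adjusted p = 0.417). Of the other genes called in the knockout, Wsb1 (0.26 here, 0.96 in the knockout), Sema4g (0.20, 0.48) and Plekhn1 (0.23, 0.49) had small values here, while Gm47075 (1.94, 2.85) and Ier2 (1.65, 2.09) had larger ones.

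In wild-type neurons at DIV7 the same 30 min of KCl gave a far broader response, with 3371 of 19822 genes called (17.0%), 1455 of them higher (7.34%). Age, guide RNA, DMSO and the selection of RNA differ together between the ages, so their effects cannot be told apart. The DIV7 libraries also varied less between replicates than the DIV18 ones (common biological coefficient of variation 6.44% against 14.6%). Tested directly over all 24 libraries, the response at DIV18 differed from that at DIV7 in 408 of 22459 genes (1.82%), 110 lower (0.49%) and 298 higher (1.33%). Of the 408, 389 had been called at DIV7, and in all 389 the difference was opposite in sign to the DIV7 change. A higher value therefore mostly stands for a gene that fell at DIV7. The test of the difference uses the same DIV7 libraries, so this overlap is partly built in.

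Several early transcription factors had smaller responses at DIV18 than at DIV7. Fosb went from 2.21 and 1.45 CPM to 458 and 500 CPM at DIV7, a log2 fold change of 8.01, and the difference between the responses, DIV18 minus DIV7, was -4.85 (SE 0.595, adjusted p = 3.93e-05). The difference was -3.88 for Fos (adjusted p = 0.0150), -3.38 for Junb (0.000161), -3.48 for Egr1 (5.08e-05) and -3.45 for Egr2 (0.00239). Nr4a2, with a log2 fold change of 4.37 at DIV7 (7.51 and 7.41 to 161 and 149 CPM) and 0.36 at DIV18, had a difference of -4.03 (adjusted p = 2.35e-06). Nr4a1 had -4.26, Nr4a3 -1.53, Klf4 -3.40, Gadd45b -2.73, Fbxo33 -2.05, Dusp6 -1.48, Gadd45g -1.14, Homer1 -1.55, Crem -1.71 and Pcsk1 -2.27, all past the threshold. Over all 57 early-response genes, 16 were called lower and 1, among the other early regulators, was called higher. Over all genes tested these shares were 0.49% and 1.33%. Of the 28 subunit genes of BAF-type complexes, 1 was called higher in this test and 0 lower. Egr3, with -0.91, passed narrowly (adjusted p = 0.0497). By contrast, the difference was not called for Npas4 (-0.69, 95% confidence interval -2.90 to 1.52), Egr4 (-0.79, -1.86 to 0.27), Ier2 (-1.08, -2.29 to 0.13), Jun (0.09, -0.80 to 0.98), Dusp1 (-0.96, -2.07 to 0.14) or Arc (-1.52, -2.74 to -0.30, adjusted p = 0.274). CPM at the 2 ages were scaled separately and are set side by side, not compared.

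Mbd6 moved in opposite directions at the 2 ages. It fell at DIV7, from 33.9 and 32.1 to 19.4 and 19.1 CPM (-0.78), and rose at DIV18, a difference of 2.56 (SE 0.340, adjusted p = 0.000102). Txnip, an inhibitor of thioredoxin that responds to glucose, fell by 4.49 on the log2 scale at DIV7 and had 126 and 156 against 111 and 96.7 CPM at DIV18 (-0.44, adjusted p = 1), a difference of 4.03 (adjusted p = 1.72e-07). Its relative Arrdc3 (difference 1.63) and the Notch target Hes5 (3.32) also fell at DIV7 and differed between the ages. In the list of 10 Txnip-related, Notch-target and Id genes, 8 had negative values in non-targeting neurons (median -0.29), and 1, Txnip, was lower at an unadjusted p under 0.05.

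Genes that were induced at DIV7 as a whole showed little shift at DIV18. The list of genes called higher at DIV7 and at least 1 higher on the log2 scale held 557 genes, of which 329 entered the DIV18 test. Their median log2 fold change in non-targeting neurons was 0.041, and 176 of 329 (53.5%) were positive, against 49.0% of all genes tested. At an unadjusted p under 0.05 there were 27 higher (8.21%), against 2.41% of all genes, and 1 was lower. Fosb was the only one called. Of 521 genes decreased at DIV7 by as much, 478 were tested, with a median of -0.046, none called, 18 higher and 12 lower at an unadjusted p under 0.05.

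**Figure D5:**
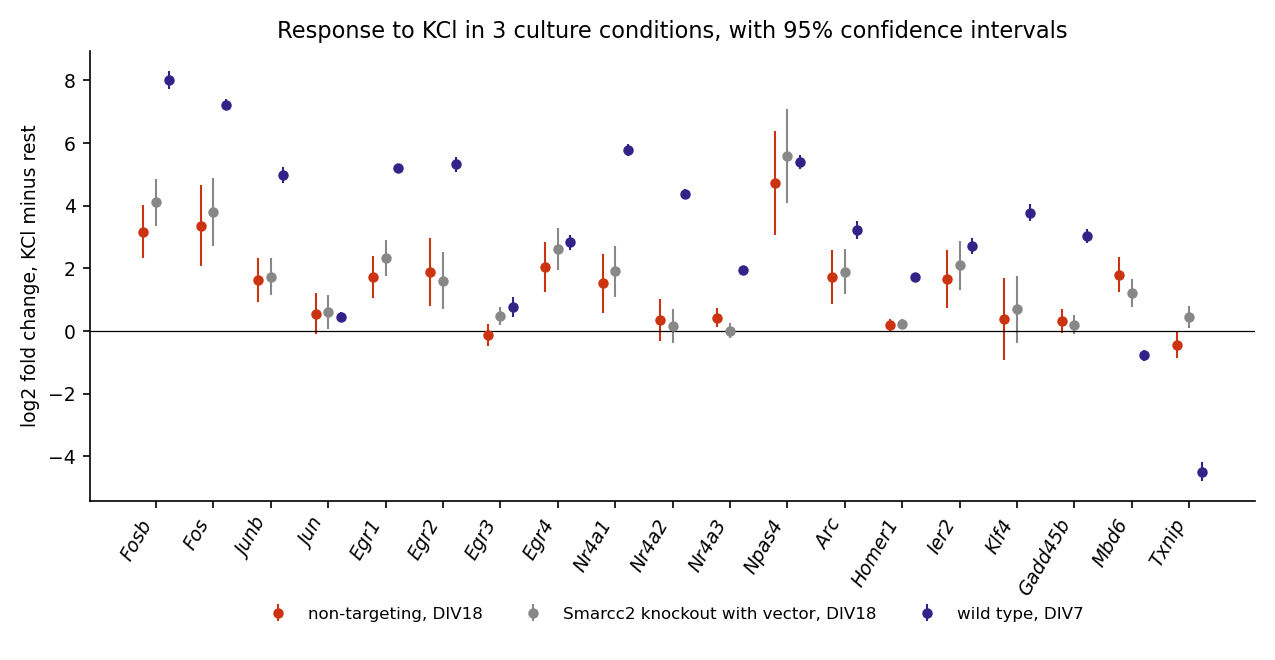
Log2 fold change of KCl over rest for 17 early-response genes, Mbd6 and Txnip in non-targeting DIV18 neurons (red), Smarcc2 knockout neurons with vector at DIV18 (grey) and wild-type neurons at DIV7 (blue); points are estimates and bars 95% confidence intervals. Red and grey intervals overlap for most genes, while the DIV7 points of Fosb, Fos, Junb, Egr1, Egr2 and the Nr4a genes lie above both, and those of Mbd6 and Txnip below.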

How the data were processed

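RNA sequencing of 24 libraries was processed by the submitters with FastQC, cutadapt and kallisto, per the submitters' processing notes. The deposited tables give, per the file headers, an estimated count, an effective length and a TPM value for each of 142552 transcripts; estimated counts need not be whole. The TPM values deposited by the authors are scaled for effective length within each library, and are printed for transcript forms. The effective length, deposited by the authors as a further column, served for length offsets. The build and annotation are not given in the sources used here; 141429 transcripts (99.2%) matched GENCODE M21 (GRCm38), and unmatched ones held at most 0.467% of counts.

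Estimated counts were summed per gene, rounded, and tested with edgeR 4.0.16 (R 4.3.3), by its two-sided quasi-likelihood F test (TMM, filterByExpr, Benjamini-Hochberg, call at an adjusted p under 0.05). All 20 DIV18 libraries entered in 8 groups (12 residual degrees of freedom); the DIV7 response was fitted alone and its difference over all 24 libraries. Unadjusted p-values are from the same fits. Lists are described without a test. Genes were named by a rule: Smarcc2 and Clca1, called genes, list members, the 8 highest and 8 lowest changes leaving out predicted genes and pseudogenes, and genes called in the knockout; Akap8, Akap8l, 1700023H06Rik, Snap25, Slc17a7 and the sex-linked genes were chosen after their values were seen. The members, lists and tests were chosen with earlier results of these data known. The short CRE and the crossed replicate numbers were added after the data were seen.

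Replicates differed beyond counting noise. p-values measure the spread between these libraries. The fits were also run on simulated counts, with independent libraries and the same mean in every group except for the genes changed. Differences in cell makeup between libraries were not simulated, so that run does not cover them. Alternatives were other size factors, DESeq2 1.42.0, no filter, the replicate number as a block, only the groups compared, length and GC offsets, and leaving out each library.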

Additional observations from a re-analysis of the deposited data

Results flagged for a closer look

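The response to KCl of non-targeting DIV18 neurons differed from that of DIV7 neurons, in the direct test of the difference, in 408 genes. Only the genes followed singly are named here, and they leave out 1 early regulator that was called higher. Genes whose log2 fold change was smaller at DIV18 were Fosb (-4.85), Nr4a1 (-4.26), Nr4a2 (-4.03), Fos (-3.88), Egr1 (-3.48), Egr2 (-3.45), Klf4 (-3.40), Junb (-3.38), Gadd45b (-2.73), Pcsk1 (-2.27), Fbxo33 (-2.05), Crem (-1.71), Homer1 (-1.55), Nr4a3 (-1.53), Dusp6 (-1.48), Gadd45g (-1.14) and Egr3 (-0.91). It was larger, or less negative, for Txnip (4.03), Hes5 (3.32), Mbd6 (2.56), Arrdc3 (1.63), Akap8 (0.74) and Akap8l (0.58). The predicted gene 1700023H06Rik had -4.13 and is near the detection limit under KCl. Of these 24 genes, 14 passed the threshold in all 10 alternatives run, Fosb, Mbd6, Txnip and the 3 Nr4a genes among them. Fos, Egr3, Klf4, Dusp6 and Gadd45g were among those that did not. Age, guide RNA, DMSO and RNA selection changed together between these cultures and cannot be told apart.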

How the results depend on the processing

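The number of genes called in non-targeting neurons, 2 in the analysis reported, was also 2 with median-of-ratios size factors. It was 15 with DESeq2, 192 without the low-count filter, 4 with GC offsets, 1 with length offsets and 0 in a fit of the non-targeting groups alone (752 at an unadjusted p under 0.05). Leaving out each library in turn gave 0 to 5 calls, none without resting replicate 1 (1581 at an unadjusted p under 0.05) and 1, not Fosb or Mbd6, without resting replicate 2. Fosb and Mbd6 were both among the calls of DESeq2, of the unfiltered fit and with GC offsets. In the unfiltered fit the edgeR test gave adjusted p-values of 1.28e-114 for Fosb and 7.11e-21 for Mbd6. Their log2 fold changes there were 3.17 and 1.80, as in the analysis reported, where the adjusted p-values were 0.00463 and 0.0187. Counts of genes called without the filter are therefore not comparable with the others and lend these calls no weight. Across 15135 genes, same-numbered libraries deviated from their group means with a correlation of -0.153, so the numbers were not taken as pairs; with the replicate block 6 genes were called, Npas4, Fos, Junb and Egr1 beside Fosb and Mbd6, and with the block and GC offsets 6. With crossed pairs there were 7 calls. Leaving aside fits without 1 library, Npas4, Fos, Junb and Egr1 passed with DESeq2 and without the filter. They also passed with the block, with the block and GC offsets together, and with crossed pairs. The block and the crossed pairs exclude each other. With GC offsets and no block, only Npas4 of these genes passed. Egr4 passed with DESeq2, without the filter and with crossed pairs, and Arc only without the filter. None of these genes passed with length offsets or in a fit of the non-targeting groups alone. The difference from the knockout response, 0 calls, gave 9 with DESeq2, 448 without the filter, 1 in a fit of those groups alone and 0 to 1 without 1 library, and 0 with the block. The difference from DIV7, 408 calls, gave 657 without the filter, 244 with length offsets and 234 to 297 without 1 library. The transcript count, 1, gave 156 with DESeq2, 2 without the filter, 0 with the replicate block, 0 in a fit of the non-targeting groups alone and 9 to 25 without 1 library. The median of the DIV7-induced list, 0.041, was 0.086 without the filter, 0.094 with length offsets and 0.019 to 0.11 without 1 library. The cause of these shifts was not tested. The sign of 10 genes turned in 1 alternative or more. None of them had a log2 fold change of at least 1 in size, but Ptgs2 had 0.49 and Klf4 0.39 in the analysis reported. Egr3 was 0.17 with length offsets. Without 1 library, Egr3 ran from -0.35 to 0.12, Jund from -0.023 to 0.27, Nab1 from -0.26 to 0.29, Nab2 from -0.071 to 0.14, Arnt from -0.071 to 0.042, Ptgs2 from -0.44 to 1.06, Plk3 from -0.19 to 0.23, Amigo3 from -0.40 to 0.37, Klf4 from -0.023 to 0.95 and Pcsk1 from -0.10 to 0.22. The median of the AP-1 list ran from 0.42 to 1.52 without 1 library, the highest without resting replicate 2. In that fit the median was the value of Junb. Fos (3.34) and Fosb (3.07) were above it, and Jun (0.68), Fosl2 (0.41) and Jund (0.25) well below. The median of oligodendrocyte precursor markers ran from -2.80 to -0.98. That of the 57 early-response genes ran from 0.16 to 0.37. Genes under about 1 CPM rest on few counts and were not resolved at this depth.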

Other observations

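Akap8 and Akap8l, neighbouring genes for nuclear anchoring proteins of protein kinase A, were higher in both depolarized libraries than in either resting one, with adjusted p-values of 0.0912 each. Akap8 had 18.8 and 18.4 CPM at rest and 26.7 and 34.5 CPM under KCl (log2 fold change 0.72, SE 0.132), and Akap8l had a mean of 25.8 ± 2.58 CPM at rest and 38.8 ± 2.23 CPM under KCl (SD, n = 2 each, log2 fold change 0.59, SE 0.106). As for Mbd6, depolarized replicate 2 was the higher one, unlike Fos and Npas4. Malat1, an abundant nuclear long non-coding RNA, had 3706 and 3132 CPM at rest and 5386 and 6122 CPM under KCl (0.75, SE 0.290, adjusted p = 1). The other 4 genes of the nuclear RNA list had smaller values, from -0.37 for Neat1 to 0.18 for Meg3.

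The predicted gene 1700023H06Rik, which lies within Arrdc3 on the opposite strand, had the smallest adjusted p of the genes with lower values. It was at 3.99 and 3.44 CPM at rest and 0.474 and 0.0534 CPM under KCl (log2 fold change -3.74, SE 0.615, adjusted p = 0.0519). Of 13 transcripts of the mitochondrial genome, 7 had positive and 6 negative values (median 0.011, none at an unadjusted p under 0.05). Of 10 genes of cell stress, 1 was higher at an unadjusted p under 0.05 and 7 had negative values (median -0.14).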
